A study of Mus musculus with 8 samples.

Results

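The genes described here are the alpha-defensins of the mouse and 4 further genes whose products are stored in Paneth cell granules, measured in jejunal mucosa. They were chosen by name: every gene whose symbol is Defa followed by a number, plus Lyz1, Mmp7, Ang4 and Itln1. This gave 32 of the 56980 gene identifiers in the count files, namely 28 alpha-defensin genes and the 4 others. GENCODE M21 gave 22 of the 28 their Defa symbol, and the other 6 (Defa38 to Defa43) carry it only in RefSeq.

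The 8 libraries came from male mice of 4 per genotype, a floxed control and an adipocyte knockout of the free fatty acid receptor FFA2. Adipoq‐F2‐KO mice carried floxed FFA2 alleles and an Adiponectin-Cre transgene, so that the Cre recombinase was driven by the adiponectin promoter of adipocytes and not by a promoter of gut epithelium. Their controls, called FFA2 fl/fl, were littermates with the same floxed alleles, and both genotypes shared cages from birth and ate chow until 12 weeks of age. All 8 mice then ate a Western diet with 10% fructooligosaccharides (WD + FOS) for 2 weeks in thermoneutral housing, so no library shows the jejunum without WD + FOS. The strain is not given in the sources used here. The comparison asked whether loss of FFA2 in adipocytes went with a difference in the RNA of the small intestine.

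Paneth cells sit at the base of small intestinal crypts, beside the stem cells, and release granules of antimicrobial proteins into the crypt lumen. Alpha-defensins, called cryptdins in the mouse gut, are made as precursors, and the metalloproteinase Mmp7 (matrilysin) cuts them into the active peptides. Lyz1 is the lysozyme of the Paneth cell, Ang4 an angiogenin-family ribonuclease with antimicrobial activity, and Itln1 an intelectin, a lectin that binds microbial sugars. Ang4 and Itln1 are also known from goblet cells.

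Total counts ran from 6007654 to 21712776 per library, and 3 libraries (FFA2 fl/fl library 3 and Adipoq‐F2‐KO libraries 3 and 4) held fewer than 10000000. Those same 3 libraries stood apart in some markers of the distal small intestine. Fabp6, the ileal bile acid binding protein, had 523, 140 and 942 normalized counts in them and between 0.774 and 3.95 in the other 5. Slc10a2, the ileal bile acid transporter, had 330, 268 and 416 normalized counts there and 30.0 to 78.2 elsewhere. Both genes were picked out after their values were seen. Muc3 and Slc51b, of the same list of 6 distal markers, were also highest in these 3 libraries, but Osr2 (777 to 857 against 591 to 969 normalized counts) and Slc51a (2737 to 3561 against 2451 to 3212) did not set them apart. The summed normalized counts of 6 proximal markers, led by the lactase gene Lct and the retinol binding protein gene Rbp2, ran from 59577 to 86529. The sum was lowest in FFA2 fl/fl library 3, then in Adipoq‐F2‐KO library 4 (69048), and Gata4 was lowest in the same 2 (1138 and 1275 normalized counts). Rbp2 was lowest in all 3 (21936, 29463 and 26664 against 31329 to 34477). Lct did not set the 3 apart (35539 to 43994 against 32223 to 51533), and Slc40a1 was highest in Adipoq‐F2‐KO libraries 3 and 4. Depth and these distal markers move together over the libraries and cannot be told apart. Ffar2, the gene of FFA2, had 2 to 18 counts per library, at 7.27, 9.49, 4.18 and 8.51 normalized counts in FFA2 fl/fl and 10.3, 7.44, 12.0 and 5.64 in Adipoq‐F2‐KO jejunum; the deletion lies in adipocytes, so these values do not check it.

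The 28 alpha-defensin genes lie in a stretch of 709.9 kb on chromosome 8 (chr8:21025545-21735471, GRCm38) and many are near copies of each other. Lyz1 lies on chromosome 10 (chr10:117287797-117292868, minus strand), Mmp7 on chromosome 9 (chr9:7692090-7699585, plus strand), Ang4 on chromosome 14 (chr14:51763878-51773590, minus strand) and Itln1 on chromosome 1 (chr1:171518122-171535294, minus strand). Positions are those of GENCODE M21, as the count files carry none. Coding sequences were 282 bases in most alpha-defensins and 351 bases in Defa29, Defa38, Defa39, Defa42 and Defa43. Of the 378 pairs of alpha-defensins, 6 had identical coding sequences: Defa2 with Defa33, Defa20 with Defa32, Defa23 with Defa31, Defa3 with Defa17, Defa36 with Defa37, and Defa42 with Defa43. The most diverged pair, Defa39 and Defa41, shared 61.1% of aligned columns.

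The last 105 bases of a coding sequence, which hold the end of the mature peptide and the stop codon, show how little separates the copies. They are given 5′ to 3′ on the coding strand, from the GRCm38 transcripts, for the most abundant alpha-defensins and for a group of copies with no counts. In Defa24 (chr8:21735273-21735377, plus strand) and Defa30 (chr8:21135399-21135503, plus strand) the capital marks the base at which the pair differ. Over the whole coding sequence, counted from the A of the start codon, Defa30 differs from Defa24 by T72C, G154T, A174G and T259A.
Defa24 end: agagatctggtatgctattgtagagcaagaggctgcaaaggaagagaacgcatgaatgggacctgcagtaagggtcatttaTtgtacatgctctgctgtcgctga
Defa30 end: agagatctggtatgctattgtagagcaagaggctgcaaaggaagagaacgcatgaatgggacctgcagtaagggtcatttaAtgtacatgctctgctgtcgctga
Defa17 (chr8:21656537-21656641, plus strand) has the same end as Defa3, and its capitals mark the 7 bases that differ from Defa24.
Defa17 end: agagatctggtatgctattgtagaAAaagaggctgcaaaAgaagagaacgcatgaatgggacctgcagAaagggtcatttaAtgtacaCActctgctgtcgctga
Defa21 (chr8:21026319-21026423, plus strand) and Defa22 (chr8:21163051-21163155, plus strand) differ by T114G and T204A in 282 coding bases, the latter in capitals.
Defa21 end: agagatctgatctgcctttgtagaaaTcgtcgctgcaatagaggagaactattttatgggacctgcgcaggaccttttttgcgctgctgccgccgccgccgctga
Defa22 end: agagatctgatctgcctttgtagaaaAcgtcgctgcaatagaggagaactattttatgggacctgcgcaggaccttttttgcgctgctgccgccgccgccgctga
The end of Defa32 (chr8:21529814-21529918, plus strand) is that of Defa2, Defa20 and Defa33 as well, and none of these 4 genes had a count.
Defa32 end: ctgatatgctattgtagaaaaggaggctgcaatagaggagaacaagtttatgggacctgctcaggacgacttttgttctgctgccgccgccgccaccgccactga
Defa39 (chr8:21702628-21702732, minus strand) is one of the genes with the longer coding sequence, and its capitals mark the 6 bases that differ from Defa38.
Defa39 end: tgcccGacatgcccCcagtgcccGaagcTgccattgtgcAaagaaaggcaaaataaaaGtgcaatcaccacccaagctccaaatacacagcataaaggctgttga

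Of the 32 genes, 14 reached 10 counts or more in 4 or more libraries and were tested: Lyz1, Mmp7, Ang4, Itln1 and the alpha-defensins Defa17, Defa21, Defa22, Defa24, Defa26, Defa29, Defa30, Defa38, Defa39 and Defa40. A further 7 alpha-defensins had counts but too few for a test. Defa3 had 77 counts and Defa34 had 64 over the 8 libraries, with at least 1 count in every library. Defa35 had 10 counts in all, Defa41 had 6, Defa27 had 4, Defa28 had 3 and Defa25 had 1. The remaining 11 (Defa2, Defa5, Defa20, Defa23, Defa31, Defa32, Defa33, Defa36, Defa37, Defa42 and Defa43) had 0 counts in every library. At these depths a count of 0 allows up to 3 counts, or 0.138 to 0.499 CPM (counts scaled to a common library total), for reads that could be assigned to the gene.

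Whether a read can be assigned depends on the copy. Single-end reads were 75 bases long, so the exons of each gene were cut into every 75-base window and each window was looked up in the transcripts of all other genes. In 7 of the 11 genes at 0 (Defa2, Defa20, Defa31, Defa32, Defa33, Defa37 and Defa42) no window was unique. In the other 4 between 2.6% and 10.1% of windows were unique. The 17 alpha-defensins with counts had 8.7% to 93.5% unique windows. In the 7 genes with no unique window, a count of 0 and reads lost to their copies cannot be told apart. The other 4 had 8 to 34 unique windows and no count, where Defa17 with 28 had 718 counts and Defa3 with 41 had 77. By contrast Defa25, Defa27, Defa28, Defa35 and Defa41 had 40.5% to 71.7% unique windows and still no more than 10 counts each.

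**Figure D1:**
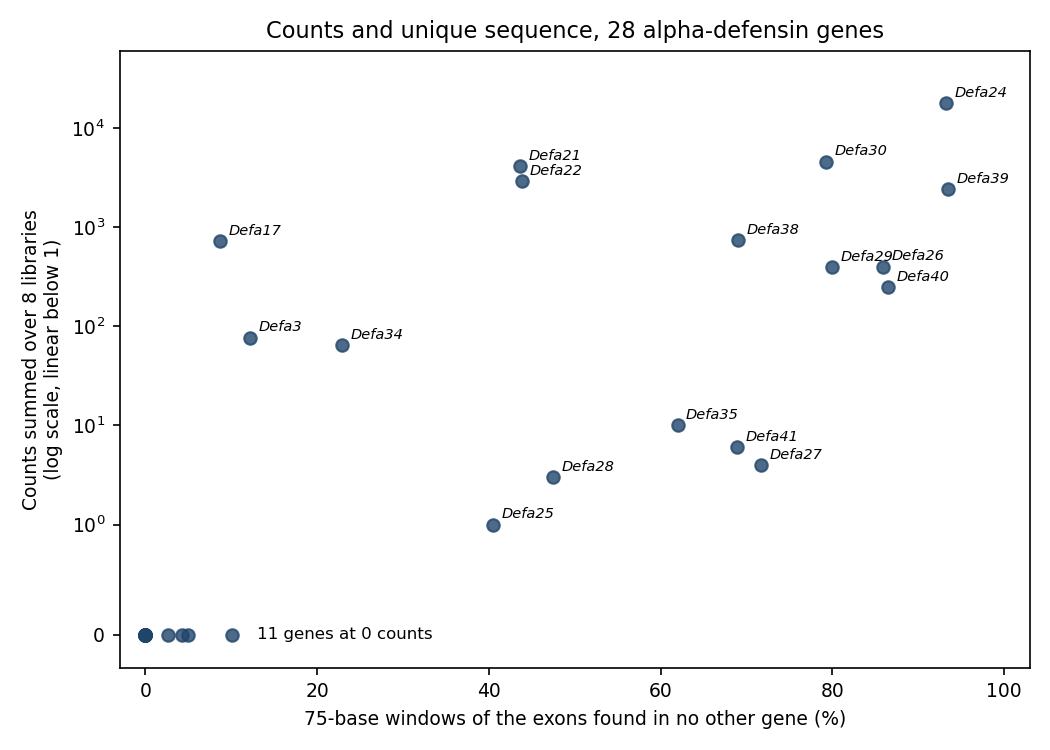
Each point is 1 of the 28 alpha-defensin genes; the x axis is the percent of its 75-base exon windows found in no other gene and the y axis its counts summed over 8 libraries (log scale, linear below 1). The 11 genes at 0 counts lie at 10.1% or less, while Defa24 with 17714 counts lies at 93.3% and Defa17 has 718 counts at 8.7%.

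Per kilobase of exon, Defa24 had the highest level of the 14 tested genes, at 5084 ± 2200 normalized counts per kb (SD, n = 8), followed by Lyz1 at 4136 ± 1349. Itln1 had 1581 ± 506, Defa21 1497 ± 1271, Defa30 1344 ± 503 and Defa22 1067 ± 893 normalized counts per kb. Defa39 (477 ± 220) and Ang4 (476 ± 206) followed, then Defa38, Defa17, Mmp7, Defa26, Defa29 and, lowest, Defa40 at 72.6 ± 23.0 normalized counts per kb. Each gene in that order overlapped in range with the next, and Defa24 was above Lyz1 in 6 of 8 libraries. The order depends on the scale for the genes with close copies. Per 100 unique 75-base windows Defa24 had 662 normalized counts, Lyz1 469, Defa21 417, Defa22 296 and Defa17 275, against 208 for Defa30. Defa17 has only 28 unique windows, so its level rests on few positions, and 91.3% of its windows are also in Defa3. A read with several matches could be dropped or shared, and how it was counted is not given in the sources used here.

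No member passed the test of the genotype difference. DESeq2 called 0 of the 14 at an adjusted p below 0.05, where it called 0.0375% of the 15986 genes tested, and edgeR's quasi-likelihood test and limma-voom also called 0. None reached an unadjusted p below 0.05 in DESeq2, edgeR or limma-voom, against 3.03% of all genes in DESeq2. The log2 fold changes of Adipoq‐F2‐KO over FFA2 fl/fl ran from −0.40 to 0.25, with 7 above and 7 below 0. Their median was −0.02, and that of all tested genes was −0.01. In none of the 14 did the genotypes separate without overlap, as 2.12% of all tested genes did. The standard errors were wide, with a median of 0.39 on the log2 scale against 0.24 over all tested genes, so the data bound these differences loosely. Nothing says that a mouse gave more than 1 library, and fewer Paneth cells and less RNA per cell cannot be told apart in bulk mucosa.

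**Figure D2:**
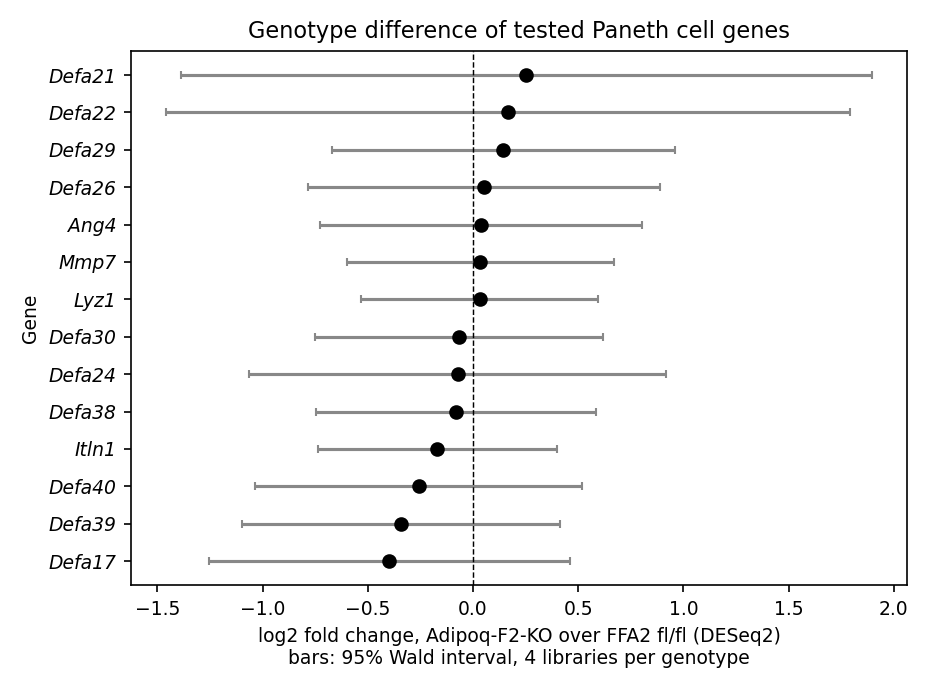
Points are the DESeq2 log2 fold changes of Adipoq‐F2‐KO over FFA2 fl/fl for the 14 tested genes and bars their 95% Wald intervals, from 4 libraries per genotype. Every interval spans 0, and those of Defa21 (−1.39 to 1.90) and Defa22 (−1.46 to 1.79) are the widest.

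Lyz1 had 5773, 4856, 7424 and 2622 normalized counts in the 4 controls and 4616, 4078, 4685 and 7736 in the 4 knockouts. Group means were 5169 ± 2003 and 5279 ± 1661 (SD, n = 4), the log2 fold change was 0.03 and its 95% Wald interval −0.53 to 0.59, and the groups overlapped. The lowest and the highest library belonged to different genotypes, and the spread within the controls was 2.83-fold. Itln1 had 2271, 2017, 2463 and 889 normalized counts in the controls and 1524, 1361, 1470 and 2442 in the knockouts. Of the 4 knockout values 3 lay between the lowest control and the other controls, and the log2 fold change was −0.17 ± 0.29 (SE). It was −0.02 without FFA2 fl/fl library 3 and −0.41 without FFA2 fl/fl library 4.

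Ang4 had 361, 290, 571 and 114 normalized counts in the controls and 377, 227, 270 and 493 in the knockouts. All 4 knockout values lay inside the control range, with a log2 fold change of 0.04 ± 0.39 (SE). Mmp7, the enzyme that activates the alpha-defensins, had 181, 133, 188 and 72.0 normalized counts in the controls and 120, 140, 106 and 220 in the knockouts. Its log2 fold change was 0.03 ± 0.32 (SE), and 1 knockout library lay above every control.

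Defa24, the alpha-defensin with the most counts, had 2520, 1928, 3549 and 739 normalized counts in the controls and 2000, 1311, 1844 and 3149 in the knockouts. All 4 knockouts lay inside the control range, at a log2 fold change of −0.07 and a 95% Wald interval of −1.06 to 0.92. Defa30, its nearest relative in sequence among the genes with counts, had 692, 482, 816 and 201 normalized counts in the controls and 501, 373, 497 and 720 in the knockouts. It followed Defa24 closely from library to library: the ratio of Defa30 to Defa24 counts was 0.229 to 0.284, a 1.24-fold range, while Defa24 itself varied 4.80-fold.

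Defa21 and Defa22 varied more between libraries than Defa24. Defa21 had 228, 316, 1579 and 162 normalized counts in the controls and 538, 318, 541 and 1325 in the knockouts. Defa22 had 153, 225, 1182 and 126 in the controls and 382, 216, 465 and 827 in the knockouts. For both genes FFA2 fl/fl library 3 and Adipoq‐F2‐KO library 4 stood far above the rest, and the range over the 8 libraries was 9.76-fold for Defa21 and 9.37-fold for Defa22. The log2 fold changes were 0.25 ± 0.84 and 0.17 ± 0.83 (SE) in DESeq2, and 0.80 and 0.79 in limma-voom. The ratio of Defa21 to Defa22 counts stayed between 1.16 and 1.60, although 43.6% and 43.8% of their windows are unique and the others are shared between the pair.

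The 5 libraries with at least 10000000 counts are also the 5 with the lower levels of Fabp6 and Slc10a2. Among them DESeq2 gave a log2 fold change of 0.86 for Defa21 (adjusted p = 0.344) and 0.82 for Defa22 (adjusted p = 0.415), both with an unadjusted p below 0.05, where 5.70% of genes had an unadjusted p below 0.05. Without FFA2 fl/fl library 3 alone, DESeq2 gave 1.53 for Defa21 (adjusted p = 0.222) and 1.49 for Defa22 (adjusted p = 0.171), and 8.29% of genes had an unadjusted p below 0.05. The direction turned for both genes without Adipoq‐F2‐KO library 4, to −0.30 for Defa21 and −0.25 for Defa22, and it also turned for both without FFA2 fl/fl library 1 (−0.01 and −0.11) or library 4 (−0.06 and −0.14) and for Defa22 without library 2 (−0.05). Neither gene was called at an adjusted p below 0.05 in any setting, though DESeq2 gave Defa21 no adjusted p without Adipoq‐F2‐KO library 2 or 4.

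Defa39 had 447, 308, 209 and 108 normalized counts in the controls and 216, 224, 114 and 293 in the knockouts. Its log2 fold change was −0.34 ± 0.39 (SE), with an unadjusted p of 0.377 in DESeq2, among the 3 smallest of the members. The log2 fold change turned to 0.025 without control library 1, was −0.14 without knockout library 3, and −0.61 or −0.53 without library 4 of the controls or of the knockouts. Defa38, which differs from it by 11 coding bases, had 104, 92.8, 100.4 and 44.1 normalized counts in the controls and 85.3, 47.1, 80.1 and 113 in the knockouts. The groups overlapped in both genes, with the control high in Defa39 being library 1 rather than library 3.

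Defa17 had the smallest unadjusted p of the members in DESeq2, 0.363, and a log2 fold change of −0.40 ± 0.44 (SE). It had 134, 80.1, 107 and 29.4 normalized counts in the controls and 67.9, 61.4, 34.0 and 102 in the knockouts. Without FFA2 fl/fl library 4, the lowest, DESeq2 gave −0.69 with an unadjusted p of 0.0445, where 1.78% of genes had an unadjusted p below 0.05, and the adjusted p was 1. Without FFA2 fl/fl library 1 or Adipoq‐F2‐KO library 3 the log2 fold change of Defa17 was −0.10 or −0.20. Defa40 had 40.6, 27.9, 35.6 and 16.3 normalized counts in the controls and 19.7, 19.8, 28.0 and 35.7 in the knockouts, with a log2 fold change of −0.26 ± 0.40 (SE). Defa26 had 57.6, 39.5, 69.0 and 20.1 in the controls and 39.5, 37.8, 32.0 and 82.7 in the knockouts. These low members, and Defa29 at 17.8 to 71.4 normalized counts, overlapped between the genotypes like the abundant ones.

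**Figure D3:**
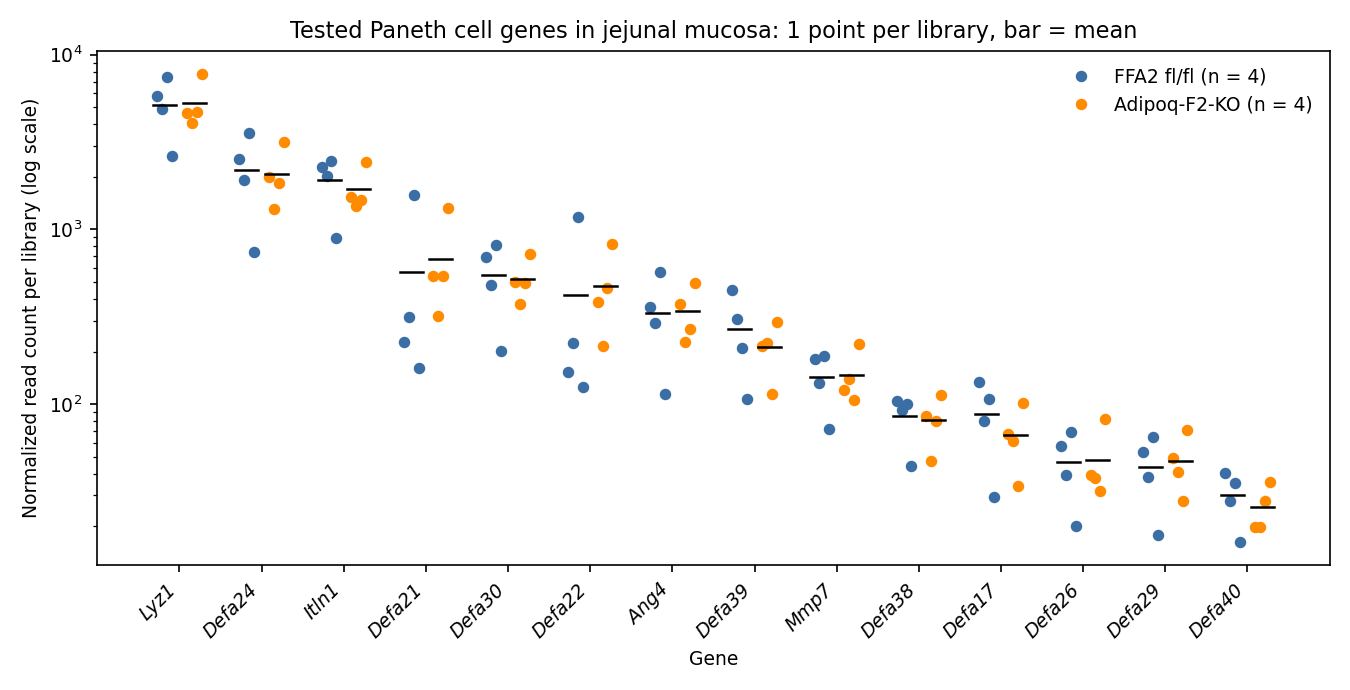
Normalized read counts (log axis) of the 14 tested genes, with 1 point per library, blue for FFA2 fl/fl and orange for Adipoq-F2-KO, and a bar at each mean of 4. The 2 genotypes overlap for every gene, from Lyz1 at 2622 to 7736 down to Defa40 at 16.3 to 40.6.

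The members moved together from library to library. FFA2 fl/fl library 4 was the lowest of the 8 for all 14 tested members. The highest library was FFA2 fl/fl library 3 for 6 of them, Adipoq‐F2‐KO library 4 for 5 and FFA2 fl/fl library 1 for 3 (Defa17, Defa39 and Defa40). Summed over the 28 genes, alpha-defensins made 4445, 3553, 7741 and 1474 normalized counts in the controls and 3922, 2660, 3686 and 6761 in the knockouts. The means were 4303 ± 2608 and 4257 ± 1757 (SD, n = 4), and all 4 knockout sums lay inside the control range. The log2 ratio of the means, knockout over control, was −0.02, and 0.06 in the 5 libraries with at least 10000000 counts. As CPM the sums ran from 123 to 616, a 5.01-fold range. Over the same libraries the summed goblet cell markers varied 1.21-fold, the villus enterocyte markers 1.22-fold and the crypt stem cell markers 1.60-fold, whereas smooth muscle markers varied 8.16-fold and the sparse neutrophil markers 6.33-fold. Other secreted Paneth cell products varied 1.76-fold, the genes of the Paneth cell program 1.23-fold and the inducible antimicrobial genes 4.61-fold, and none of these 3 sums was lowest in FFA2 fl/fl library 4. The sum of the other secreted products hides unlike genes: the lipase gene Pnliprp2 was highest in FFA2 fl/fl library 4, at 548 normalized counts, while Pla2g2a, a secreted phospholipase, and Habp2 were lowest there, at 19.4 and 27.1 against highest values of 105 and 117. Mptx2 had 156 in that library and ran from 152 to 393. The sum of the Paneth cell program hides unlike genes as well. Sox9 and Cd24a were lowest in FFA2 fl/fl library 4, at 104.5 and 506 normalized counts against highest values of 178 and 972. Atoh1 had 135 there and ran from 134 to 232, whereas Dll1 was highest there, at 1193. The stem cell sum was also lowest in FFA2 fl/fl library 4, at 2071 normalized counts against 2390 to 3306 in the others. So were the sums of the exocrine pancreas list (67.3 against 119 to 185) and of the relatives of Lyz1, Ang4 and Itln1 (107 against 153 to 254). The exocrine pancreas sum was almost all Clps and Cela1. Clps had 42.6 normalized counts in FFA2 fl/fl library 4 against 91.1 to 158 in the others, and Cela1 21.7 against 26.0 to 37.6. No other gene of that list had more than 8 counts in all, so the sum says little about pancreas.

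Ratios within a library removed most of this shared variation for the granule genes. The ratio of Mmp7 to Lyz1 counts was 0.0226 to 0.0344 and that of Itln1 to Lyz1 0.314 to 0.415, ranges of 1.52-fold and 1.32-fold, where Mmp7 and Itln1 themselves varied 3.06-fold and 2.77-fold. Ang4 to Lyz1 varied 1.88-fold and Defa24 to Lyz1 1.70-fold. The ratio of Defa21 to Defa24, in contrast, varied 4.92-fold and that of Defa39 to Defa24 3.01-fold. These ratios compare libraries and not the levels of the genes.

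**Figure D4:**
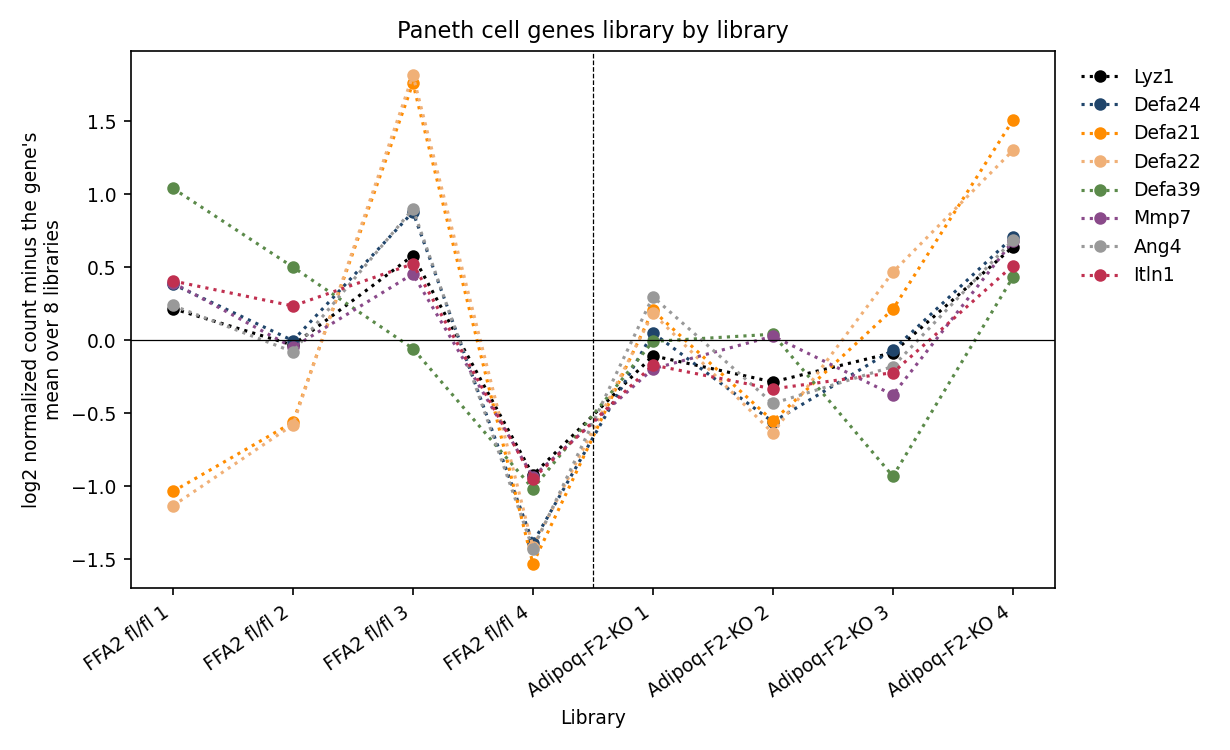
The y axis is each gene's log2 normalized count minus its own mean over the 8 libraries on the x axis, 4 FFA2 fl/fl left of the dashed line and 4 Adipoq-F2-KO right of it; dotted lines only join the points of 1 gene. All 8 genes shown are at their lowest in FFA2 fl/fl 4, and Defa21 and Defa22 part from the others in FFA2 fl/fl 1 and 3 and in Adipoq-F2-KO 4.

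The make-up of the alpha-defensin counts followed the library as well. Defa24, Defa30, Defa21, Defa22 and Defa39 together made 90.7% to 94.7% of the alpha-defensin counts in every library. Defa24 alone made 45.8% to 56.7%. The exon lengths of these 5 genes are 398 to 503 bases, so shares of counts are close to shares per length, apart from reads shared with copies. Defa21 and Defa22 together made 8.57%, 15.2%, 35.7% and 19.5% of the counts in the 4 control libraries and 23.5%, 20.1%, 27.3% and 31.8% in the 4 knockout libraries. The genotypes overlapped, with medians of 17.4% and 25.4%. The 3 highest shares were in FFA2 fl/fl library 3 and Adipoq‐F2‐KO libraries 4 and 3, the libraries with the most Fabp6 and Slc10a2 and with the lowest depth. Defa39 had its 3 lowest shares in the same libraries, at 2.70% in FFA2 fl/fl library 3, 3.10% in Adipoq‐F2‐KO library 3 and 4.34% in Adipoq‐F2‐KO library 4. It had 5.52% to 10.1% in the other 5. Muscle markers were also uneven: the summed normalized counts of 10 smooth muscle genes, led by Mylk and Myh11, were 31087 in FFA2 fl/fl library 3 and 12688 in Adipoq‐F2‐KO library 4 against 3808 to 8236 in the others. The part of distal tissue, depth and muscle in these shares was not tested.

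**Figure D5:**
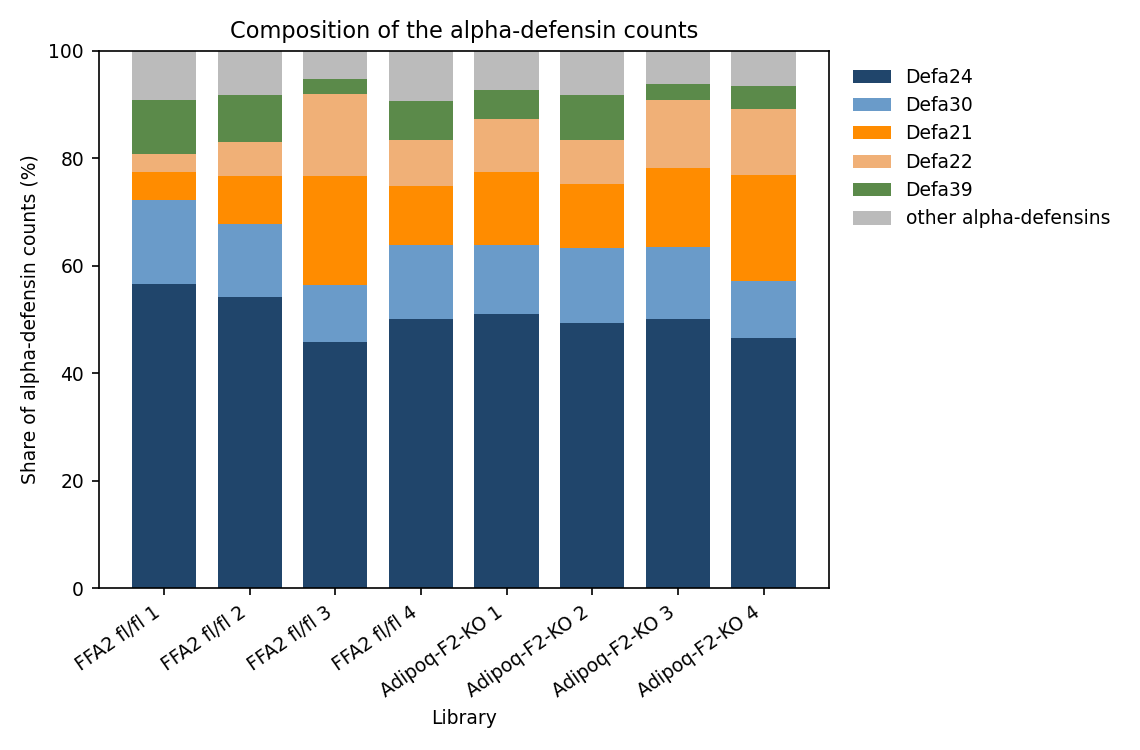
Stacked bars give the percent of all alpha-defensin counts in each of 8 libraries that came from Defa24, Defa30, Defa21, Defa22, Defa39 and all other alpha-defensins. Defa21 and Defa22 together range from 8.57% in FFA2 fl/fl 1 to 35.7% in FFA2 fl/fl 3.

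The promoter table of RefSeq (GRCm38.p6; 250 bases before to 50 after each start site) held windows for 16 of the 28 alpha-defensins and for the other 4 genes. It was searched on both strands for TATAAA, the letters of the core promoter element that the TATA-binding protein reads, and for CTTTGAT, the core letters of sites for TCF and LEF factors of the Wnt pathway, which is known to drive Paneth cell maturation. TATAAA stood in 15 of the 16 alpha-defensin windows, and in 13.6% of the 32851 windows of all genes. CTTTGAT stood in 13 of the 16, and in 3.73% of all windows. It was missing from the windows of Defa38, Defa42 and Defa43, and Defa28 had CTTTGAT without TATAAA. In the 12 windows with both, the copy of CTTTGAT farthest from the start site began 81 bases before TATAAA, on the strand opposite to the gene, and 9 of the 12 held a further copy. Neither motif was found in the windows of Lyz1, Ang4 or Itln1, while Mmp7 had both in 1 of its windows. The motifs do not overlap, and many of these promoters are copies of each other, so the windows are not independent.

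The 250 bases before the start site are shown for Defa21 (chr8:21025295-21025544) and Defa30 (chr8:21134400-21134649), both on the plus strand, because these tested genes differed in how they varied over libraries. They share the 81-base spacing but not the number of copies. Capitals mark TATAAA and ATCAAAG, the reverse complement of CTTTGAT, which occurs 2 times in Defa21 and 1 time in Defa30.
Defa21 upstream: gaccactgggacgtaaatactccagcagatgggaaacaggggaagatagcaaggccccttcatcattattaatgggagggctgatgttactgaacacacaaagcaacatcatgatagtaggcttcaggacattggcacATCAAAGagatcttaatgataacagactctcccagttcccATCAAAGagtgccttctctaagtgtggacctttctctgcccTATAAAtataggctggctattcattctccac
Defa30 upstream: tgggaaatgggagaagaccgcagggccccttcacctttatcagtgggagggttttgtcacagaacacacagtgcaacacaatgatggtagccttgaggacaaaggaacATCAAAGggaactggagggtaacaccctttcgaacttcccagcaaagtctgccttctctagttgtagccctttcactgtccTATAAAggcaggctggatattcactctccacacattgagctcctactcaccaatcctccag

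Genes around these members were described from lists of markers. Of 26 other annotated genes between the outermost alpha-defensins, 11 had any count, none more than 7 in a library, and none could be tested. Among 4 tested genes of other secreted Paneth cell products, such as Mptx2, a pentraxin, and Pnliprp2, a lipase, none had an unadjusted p below 0.05 in DESeq2, and their median log2 fold change was −0.08. Of 20 genes of the Paneth cell program (transcription factors, autophagy genes, growth factors, and Wnt and Notch ligands), 2 had an unadjusted p below 0.05 in DESeq2, as did 3.03% of all tested genes, and both had the higher mean in Adipoq‐F2‐KO. Wnt3, a Wnt ligand made by Paneth cells, had 13.9, 8.96, 14.6 and 11.6 normalized counts in the controls and 26.1, 21.1, 22.0 and 22.6 in the knockouts, with a log2 fold change of 0.95 ± 0.39 (SE). The groups did not overlap, as in 2.12% of all tested genes, and the adjusted p in DESeq2 was 0.9998. Tcf7l2, a TCF factor that carries the Wnt signal in the nucleus, had a log2 fold change of 0.43 ± 0.17 (SE) and the same adjusted p. It had 1623, 1668, 2585 and 1771 normalized counts in the controls and 2472, 2388, 2451 and 2982 in the knockouts. DESeq2 called it without FFA2 fl/fl library 3 (0.61, adjusted p = 9.33e-05) and in the 5 deep libraries (0.53, adjusted p = 0.000912). Both settings leave out FFA2 fl/fl library 3, the control that overlapped the knockouts. They called 108 and 81 genes, against 6 with all 8 libraries.

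Lyz2, the lysozyme of macrophages and the nearest relative of Lyz1, had 43.6, 122, 107 and 38.7 normalized counts in the controls and 91.6, 162, 166 and 179 in the knockouts. It was 1 of 2 tested relatives of the granule genes, and its log2 fold change was 0.95 ± 0.39 (SE), with an unadjusted p of 0.014 and an adjusted p of 0.9998 in DESeq2. Lyz1 shares 6.2% of its windows with Lyz2, and Lyz2 had at most 179 normalized counts where Lyz1 had at least 2622. The macrophage genes C1qa, C1qb, C1qc, Adgre1 and Csf1r, picked after their values were seen, had log2 fold changes of 0.61, 0.66, 0.80, 0.67 and 0.47, none with an unadjusted p below 0.05 in DESeq2. Like Lyz2 they were lowest in FFA2 fl/fl library 4, and the part of macrophages in the Lyz2 values was not tested. Of 6 tested inducible antimicrobial genes, led by the C-type lectins Reg3b and Reg3g, DESeq2 gave 5 a p and left that of Nos2 as NA, and none of the 5 had an unadjusted p below 0.05. The summed normalized counts of the list ran from 14324 to 66048, lowest in FFA2 fl/fl library 1 and highest in FFA2 fl/fl library 2, an order unlike that of the granule genes.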

How the data were processed

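Bulk RNA was sequenced from jejunal mucosa of 8 male mice, 4 per genotype. The authors trimmed single-end reads with Trimmomatic, aligned them with STAR to GRCm38 (mm10) and counted them with featureCounts, per the submitters' processing notes; versions and the handling of multi-mapped reads are not given in the sources used here. The deposited values are raw counts per Ensembl gene. Of 56980 identifiers, 52073 are in GENCODE M21; the other 4907 carry no name or position here.

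The 15986 genes that reached 10 counts or more in 4 or more libraries were fitted with DESeq2 1.42.0 (R 4.3.3) on genotype alone, the study's method, with Benjamini-Hochberg adjustment; normalized counts are counts divided by its size factors. Intervals are Wald intervals of 1.96 standard errors, and floors cover counting error only. edgeR 4.0.16, limma 3.58.1 and other settings were alternatives. Scripts were tested on simulated data. Coding sequences and windows came from GENCODE M21 transcripts (Biopython and pandas in Python), promoters from RefSeq.

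The members, the marker lists and the tests were chosen with earlier results of these data known. All members are named. Values per library are given for Lyz1, Mmp7, Ang4, Itln1, the 8 alpha-defensins with the highest mean normalized count and the 3 members with the smallest p. Each marker list gives at most 3 genes, those of lowest unadjusted p if that is below 0.05, and otherwise the 2 of highest mean. Other marker genes described (Fabp6, Slc10a2 and further distal, proximal, macrophage and Paneth cell genes) were picked after their values were seen. Adjusted p-values that DESeq2 gave as NA (8 genes in the fit of all 8 libraries on genotype alone) stayed NA. The result of 1 marker list is not reported here.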

Additional observations from a re-analysis of the deposited data

Results flagged for a closer look

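In groups of 4 libraries, a library is picked out here when its gap to the nearest other library is a larger part of the group's range than Dixon's 95% critical value allows, which chance alone does for about 1 group in 20. Of 32 groups examined (the 14 tested members, the summed alpha-defensins and the share of Defa21 and Defa22, in each genotype), 5 were picked out, and they are not independent because the members move together. Among the FFA2 fl/fl libraries, library 3 stood apart for Defa21 at 1579 normalized counts (0.891 of the range) and for Defa22 at 1182 (0.906 of the range). Among the Adipoq‐F2‐KO libraries, library 4 stood apart for Lyz1 at 7736 normalized counts, for Itln1 at 2442 and for Defa26 at 82.7, with gaps of 0.834, 0.850 and 0.853 of the range. Both libraries were among the 3 shallow ones and had high Fabp6 and Slc10a2, and the part of these in the values was not tested.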

How the results depend on the processing

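No member was called at an adjusted p below 0.05 under any of the 15 alternatives (edgeR, limma-voom and 13 settings of DESeq2), and the lowest adjusted p of any tested member was 0.171. Some members had no adjusted p in some DESeq2 settings and were counted as not called. These were Defa21 without Adipoq‐F2‐KO library 2 or 4, and Defa26, Defa29 and Defa40 with the muscle covariate. Defa40 also had none in the deep libraries and without FFA2 fl/fl library 3. Members at an unadjusted p below 0.05 numbered 2 in the 5 libraries with at least 10000000 counts, and 0 to 2 when single libraries were left out. Of 210 alternative fold changes of tested members, 174 kept their direction and 36 turned, none of them called. All genes called numbered 6, against 2 with edgeR, 1 with limma-voom, 3 without the filter on low counts, 11 with the replicate block, 81 in the deep libraries, 12 with a smooth muscle score as covariate, and 1 to 108 with single libraries left out, the 108 without FFA2 fl/fl library 3; the cause was not tested. Replicate numbers did not pair the libraries (correlations of same-numbered libraries 0.542, 0.294, 0.011 and −0.423), and the block turned only Defa30 among the members, to 0.025.

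Directions turned with limma-voom for Defa24 (0.063) and Defa30 (0.073), in the deep libraries for Defa26 (−0.025) and Lyz1 (−0.025), and with the muscle covariate for Mmp7 (−0.017) and Defa26 (−0.012). With single libraries left out, log2 fold changes ranged from −0.21 to 0.18 for Mmp7, −0.61 to 0.025 for Defa39, −0.31 to 0.27 for Defa26, −0.25 to 0.42 for Ang4, −0.31 to 0.12 for Defa38, −0.36 to 0.27 for Defa24, −0.21 to 0.26 for Lyz1, −0.12 to 0.36 for Defa29, −0.25 to 1.49 for Defa22, −0.34 to 0.19 for Defa30, −0.30 to 1.53 for Defa21, −0.69 to −0.10 for Defa17, −0.41 to −0.02 for Itln1 and −0.48 to −0.05 for Defa40. Defa21 and Defa22 moved from 0.25 and 0.17 to 0.80 and 0.79 with limma-voom, 0.67 and 0.65 with the replicate block, and 0.64 and 0.62 with the muscle covariate; the cause was not tested. The log2 ratio of the summed alpha-defensins was −0.02, and −0.33 to 0.43 over the alternatives. The SD of the log2 sum between single libraries of a genotype was 0.807, which does not measure the error of a ratio of means.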

Other observations

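Further lists of markers gave the other cells of the mucosa, with DESeq2 as above and no gene of them at an adjusted p below 0.05. Of 10 tested proliferation genes, 8 had log2 fold changes above 0 (median 0.26 against −0.01 for all tested genes) and 2 had an unadjusted p below 0.05, against 3.03% of all tested genes, namely Mki67 with 0.35 ± 0.15 (SE) and Top2a, a topoisomerase of dividing cells, with 0.33 ± 0.14. Mki67 was called without FFA2 fl/fl library 3 (adjusted p = 0.0365), a setting in which 108 genes were called. Of 5 tested distal small intestine genes, Osr2 had an unadjusted p below 0.05, at a log2 fold change of 0.31 ± 0.14, and it was called in the 5 deep libraries (adjusted p = 0.0360), where 81 genes were called. None of the 7 tested goblet cell genes (led by Muc2 and Fcgbp), 9 villus enterocyte genes (led by Apoa1 and Sis), 6 crypt stem cell genes (led by Olfm4 and Slc12a2), 10 smooth muscle genes or 5 proximal genes had an unadjusted p below 0.05. All 10 smooth muscle genes had log2 fold changes below 0, with a median of −0.92, and FFA2 fl/fl library 3 had the highest sum.

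Lists of neutrophil and exocrine pancreas genes were included for cells outside the epithelium. Of 8 neutrophil genes 3 were at 0 counts in every library and only Ltf passed the filter on low counts, while Ngp had 8 counts in all. Of 8 exocrine pancreas genes only Clps and Cela1 passed it, and neither had an unadjusted p below 0.05.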
